A study of Mus musculus with 6 samples.

Results

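Polycomb repressive complexes are chromatin-modifying assemblies that keep developmental genes silent. PRC2 places methyl groups on lysine 27 of histone H3 through its EZH subunit, and PRC1 attaches ubiquitin to histone H2A through its RING subunits. In embryonic stem cells both occupy CpG-rich promoters of lineage regulators, and the choice of accessory subunits is known to differ between pluripotent and differentiating cells. The 32 genes described here encode core and accessory subunits of PRC1 and PRC2, chosen by name, out of 23999 gene symbols in the count table. All 32 were in the table, and all 32 passed the filter on low counts.

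Mouse embryonic stem cells were profiled by sequencing polyadenylated RNA, given as read counts per gene. One group (n = 3) was kept for 6 days with tamoxifen, given as 4-hydroxytamoxifen (4OHT), and the other (n = 3) for 6 days with the ethanol vehicle. All 6 samples carried a floxed element called -5 and an exogenous V5-tagged mouse Nanog, so the vehicle cells shared both. The series title ties the element to a Nanog enhancer; the labels name no Cre, and nothing says whether the 3 samples of a group were separate cultures, so p-values measure only the spread between these samples.

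The 4OHT libraries held 55194644, 515388 and 31307423 counts, and the vehicle libraries 20030423 to 52250671. In 4OHT replicate 2 a single read was therefore worth 1.94 CPM (the count scaled to the size of its library), against at most 0.0499 CPM in the other 5 libraries. Nanog stood at 177, 172 and 194 CPM in 4OHT cells and at 631, 660 and 641 CPM in vehicle cells, and reads of the tagged copy may be included. Pou5f1, a defining factor of stem cells, ranged from 1084 to 1182 CPM in 4OHT and from 1270 to 1295 CPM in vehicle cells (CPM here and below are TMM-scaled). Of 10 embryonic stem cell markers, Nanog and Pou5f1 included, 1 (Sox2) rose, 3 fell and 6 did not pass, with a median log2 fold change of -0.01. Among 18 markers of primitive endoderm, 16 were tested, 15 rose and none fell, with summed levels of 1417 to 1506 CPM in 4OHT and 927 to 976 CPM in vehicle cells, while Ttr had no read in any library. All 9 tested markers of the 2-cell-like state rose, with sums of 25.1 to 26.7 CPM in 4OHT against 7.99 to 8.66 CPM in vehicle. Over all tested genes 11.9% rose and 10.5% fell. Zfp352 in this list and Foxa2 in the endoderm list passed the filter on low counts through their 4OHT values alone and so had to differ. The counts of both lists are therefore a description. Of 10 fibroblast markers 4 were tested, Thy1 fell and none rose, the sums were 14 to 19.1 CPM in 4OHT against 24.4 to 26.1 CPM in vehicle, and Postn and Fap had no read. The part that shifts in these other cell states play in the values of the Polycomb genes was not tested.

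Polycomb genes moved by small amounts and more often up than down. Of the 32 genes, 10 were higher in 4OHT cells, 2 were lower and 20 did not pass the test (edgeR quasi-likelihood, adjusted p under 0.05 over all 14458 tested genes). Over all tested genes 22.4% passed, 11.9% as higher and 10.5% as lower, beside 37.5%, 31.2% and 6.25% of the Polycomb genes. Their median log2 fold change of 4OHT over vehicle was 0.13, against -0.00 over all tested genes, and the median size without regard to sign was 0.16 against 0.14. The groups did not overlap for 16 of the 32 genes, beside 31.3% of all tested genes. Polycomb genes were more abundant than most, with a median mean level of 71.5 CPM against 19.6 CPM, but the share of all genes that passed among those at 10 CPM or more was 22.8% (12.6% higher, 10.2% lower), where 11 of 28 Polycomb genes passed. In these bulk samples a change in RNA per cell and a change in the number of cells expressing a gene cannot be told apart. The call count depended on the test: DESeq2 on the same libraries called 6 higher and 0 lower, beside 6.87% of all genes to which it gave an adjusted p. It called the same 12 genes as edgeR once the shallow 4OHT replicate 2 was left out, beside 15.0% of all genes in that setting. Without vehicle replicate 2 edgeR called 6 higher and 2 lower.

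**Figure D1:**
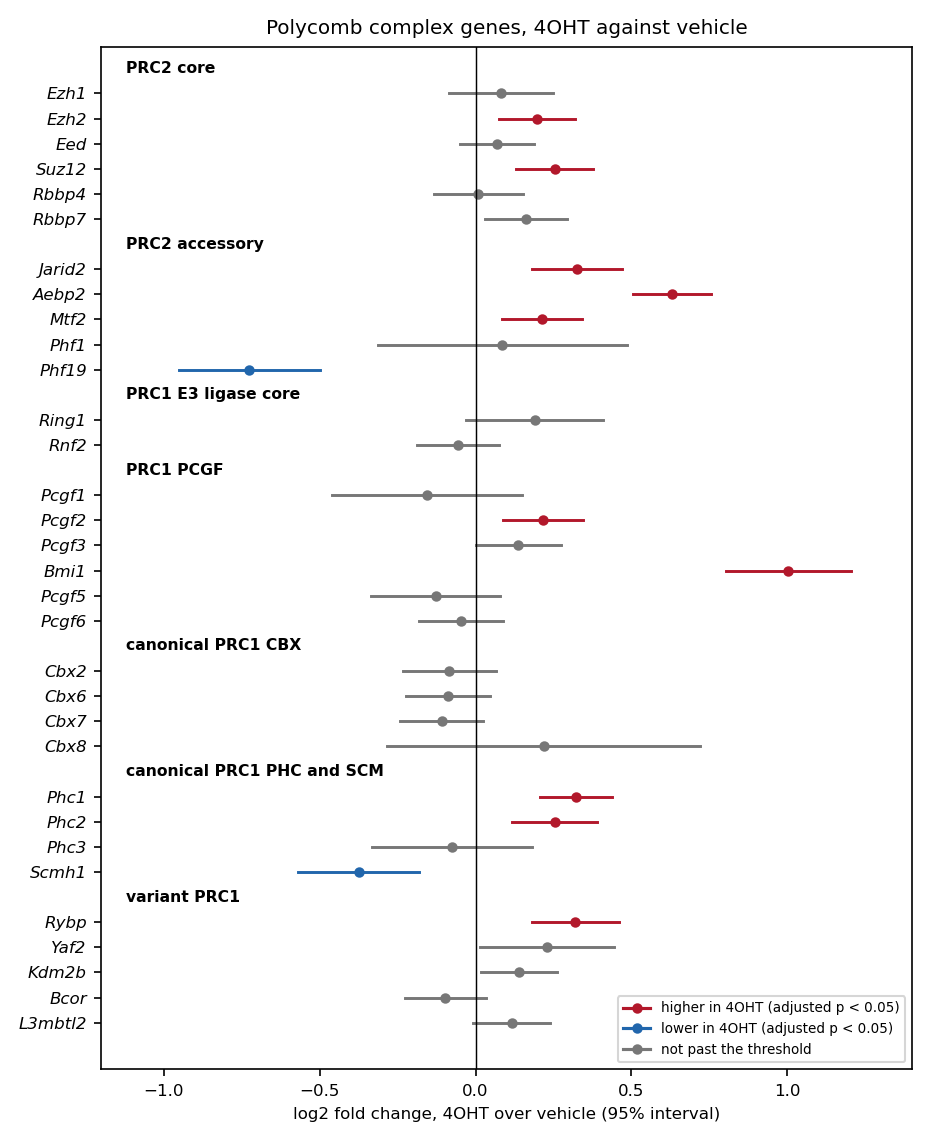
Log2 fold change of 4OHT over vehicle with its 95% interval for each of the 32 Polycomb genes, grouped by role from top to bottom (n = 3 libraries per group). Red and blue mark genes past an adjusted p of 0.05; Bmi1 (1.0) and Aebp2 (0.63) lie farthest to the right and Phf19 (-0.72) farthest to the left.

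The promoters of the genes with the largest rises and falls are shown so that their sequence can be set beside the values that follow. Each run is the 250 bases before a RefSeq start (GRCm38.p6, given 5′ to 3′ on the gene's strand; where a gene has several starts, the one with most CpG), and capitals mark GC boxes, GGGCGG on either strand. The deposited counts were made on mm9, whose coordinates differ.

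Bmi1, plus strand, chr2:18676768-18677017: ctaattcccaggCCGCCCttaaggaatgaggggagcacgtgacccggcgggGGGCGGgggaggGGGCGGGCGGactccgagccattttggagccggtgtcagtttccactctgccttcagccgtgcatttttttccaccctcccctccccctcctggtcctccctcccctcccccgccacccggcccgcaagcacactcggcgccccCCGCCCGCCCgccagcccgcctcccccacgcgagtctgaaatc
Aebp2, plus strand, chr6:140624659-140624908: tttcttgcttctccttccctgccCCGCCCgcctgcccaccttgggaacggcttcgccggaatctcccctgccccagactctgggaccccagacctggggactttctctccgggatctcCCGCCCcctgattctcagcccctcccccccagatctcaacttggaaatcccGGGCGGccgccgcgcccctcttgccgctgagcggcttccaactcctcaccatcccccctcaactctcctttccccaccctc
Phf19, minus strand, chr2:34913977-34914226: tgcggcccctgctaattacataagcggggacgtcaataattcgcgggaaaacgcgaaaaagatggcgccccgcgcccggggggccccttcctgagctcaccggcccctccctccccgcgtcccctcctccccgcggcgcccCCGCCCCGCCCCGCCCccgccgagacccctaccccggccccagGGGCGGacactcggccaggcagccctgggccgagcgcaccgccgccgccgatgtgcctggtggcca
Scmh1, plus strand, chr4:120405098-120405347: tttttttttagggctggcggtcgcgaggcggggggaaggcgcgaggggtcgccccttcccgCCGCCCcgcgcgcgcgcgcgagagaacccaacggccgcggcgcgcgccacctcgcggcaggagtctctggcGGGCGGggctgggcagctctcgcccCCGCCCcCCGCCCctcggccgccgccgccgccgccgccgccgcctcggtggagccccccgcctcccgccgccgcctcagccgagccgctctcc

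These 4 windows held 21, 14, 31 and 45 CpG dinucleotides for Bmi1, Aebp2, Phf19 and Scmh1, and 6, 3, 4 and 4 GC boxes. Since the start with most CpG was taken, these counts are partly set by that choice. The other Aebp2 starts held 1 and 3 CpG with 0 and 1 GC boxes, and the other Scmh1 start held 0 CpG and no GC box. RefSeq starts were at hand for 28 of the 32 genes, with 41 windows in all. At least 10 CpG occurred in 33 of the 41 windows (80.5%), beside 37.8% of 32851 windows of all genes, and a GC box in 27 of them (65.9%, beside 32.7%). A CCAAT box, searched on both strands as the letters CCAAT, occurred in 34.1% of the windows and in 33.8% of all windows. The E2F-like letters TTTCCCGC, also searched on both strands, occurred in the Phf19 and Suz12 windows and in 0.895% of all windows. The other E2F-like letters searched, TTTGGCGC and TTTCGCGC, occurred in none of the 41 windows, beside 0.417% and 0.256% of all windows. A match is a description of these letters and not a bound site.

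Of the 6 core PRC2 genes, Ezh2 and Suz12 rose and the other 4 did not pass. Ezh2, the main methyltransferase of PRC2 in dividing cells, had 278, 271 and 261 CPM in 4OHT cells against 234, 230.4 and 242 CPM in vehicle cells. All 3 values in 4OHT cells lay above all 3 in vehicle cells, and the log2 fold change was 0.20 (SE 0.06, edgeR adjusted p = 0.0176). Suz12, the scaffold on which PRC2 assembles, had 454, 401 and 433 CPM in 4OHT against 374, 364 and 359 CPM in vehicle. It also rose without overlap, with a log2 ratio of 0.25 (SE 0.06, edgeR adjusted p = 0.00339). The Ezh2 call was lost without vehicle replicate 1 or 2 (edgeR adjusted p = 0.0715 and 0.152) and in DESeq2 with all libraries (adjusted p = 0.0799).

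Eed, which reads trimethylated lysine 27 and stimulates the enzyme, had 373, 368 and 377 CPM in 4OHT cells and 344, 360.3 and 367 CPM in vehicle cells. The groups did not overlap, but by a margin smaller than their spread, and the log2 fold change was 0.07 (95% interval -0.05 to 0.19, edgeR adjusted p = 0.438). Ezh1, the paralogue of Ezh2 with weaker enzymatic activity, had 26.7, 22.9 and 23.2 CPM in 4OHT and 24.5, 22.8 and 23.5 CPM in vehicle cells. Its groups overlapped, and the 95% interval of its log2 fold change, 0.08, was -0.08 to 0.25. The histone chaperone genes Rbbp4 and Rbbp7, which also serve other complexes, had log2 fold changes of 0.01 (95% interval -0.13 to 0.15) and 0.16 (0.03 to 0.29). Rbbp7 stood at 381, 411 and 427 CPM in 4OHT against 340.2, 370.4 and 376 CPM in vehicle. Its edgeR adjusted p was 0.0733, but 0.00247 with the replicate number as a block and 0.0014 without 4OHT replicate 1. A processed pseudogene, Gm6382, matches 42.0% of the longest Rbbp7 transcript at 95% identity or more and was not in the table.

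The accessory genes of PRC2 held the clearest rises and the clearest fall of that complex. Aebp2 and Jarid2 encode the subunits of the form known as PRC2.2. Aebp2, a zinc finger protein, had 233, 229 and 213 CPM in 4OHT cells against 149.7, 142 and 142 CPM in vehicle cells. The groups were far apart, a 1.55-fold rise (log2 fold change 0.63, SE 0.06, edgeR adjusted p = 1.48e-07). Jarid2, a Jumonji-family protein that recruits PRC2, had 952, 806 and 787 CPM in 4OHT against 709, 662 and 676 CPM in vehicle. All 4OHT values were higher, with replicate 1 the highest of them, and the rise was 1.25-fold (log2 fold change 0.33, SE 0.07, edgeR adjusted p = 0.00162).

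The Polycomb-like genes Mtf2, Phf1 and Phf19 encode alternative subunits of the form known as PRC2.1, which bind CpG-rich DNA, and they did not move together. Mtf2, the main one of them in stem cells, had 534, 449 and 516 CPM in 4OHT cells against 436, 439 and 447 CPM in vehicle cells. The groups did not overlap, but 4OHT replicate 2 was close to the vehicle values, and the log2 fold change was 0.21 (SE 0.06, edgeR adjusted p = 0.0165). That call was lost without vehicle replicate 1 or 2 (edgeR adjusted p = 0.0594 and 0.11). Phf19 fell, to 5.70, 5.73 and 5.52 CPM in 4OHT against 9.58, 9.36 and 8.87 CPM in vehicle (log2 fold change -0.72, SE 0.11, edgeR adjusted p = 4.2e-05). The value in 4OHT replicate 2 rested on 3 reads, while replicates 1 and 3 held 312 and 169 reads, and DESeq2 with all libraries gave an adjusted p of 0.0551. Phf1 was near 2 CPM in 5 libraries, with 118, 3 and 54 reads in 4OHT and 100, 35 and 55 reads in vehicle cells, and had a log2 fold change of 0.09 (95% interval -0.31 to 0.48). The opposite-strand gene Cuta overlaps 39.3% of the exon bases of Phf1, and the use of strand in the counting is not given in the sources used here, so the value of Phf1 is uncertain. Across PRC2 as a whole 5 of 11 genes rose and 1 fell, beside 11.9% and 10.5% of all tested genes.

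**Figure D2:**
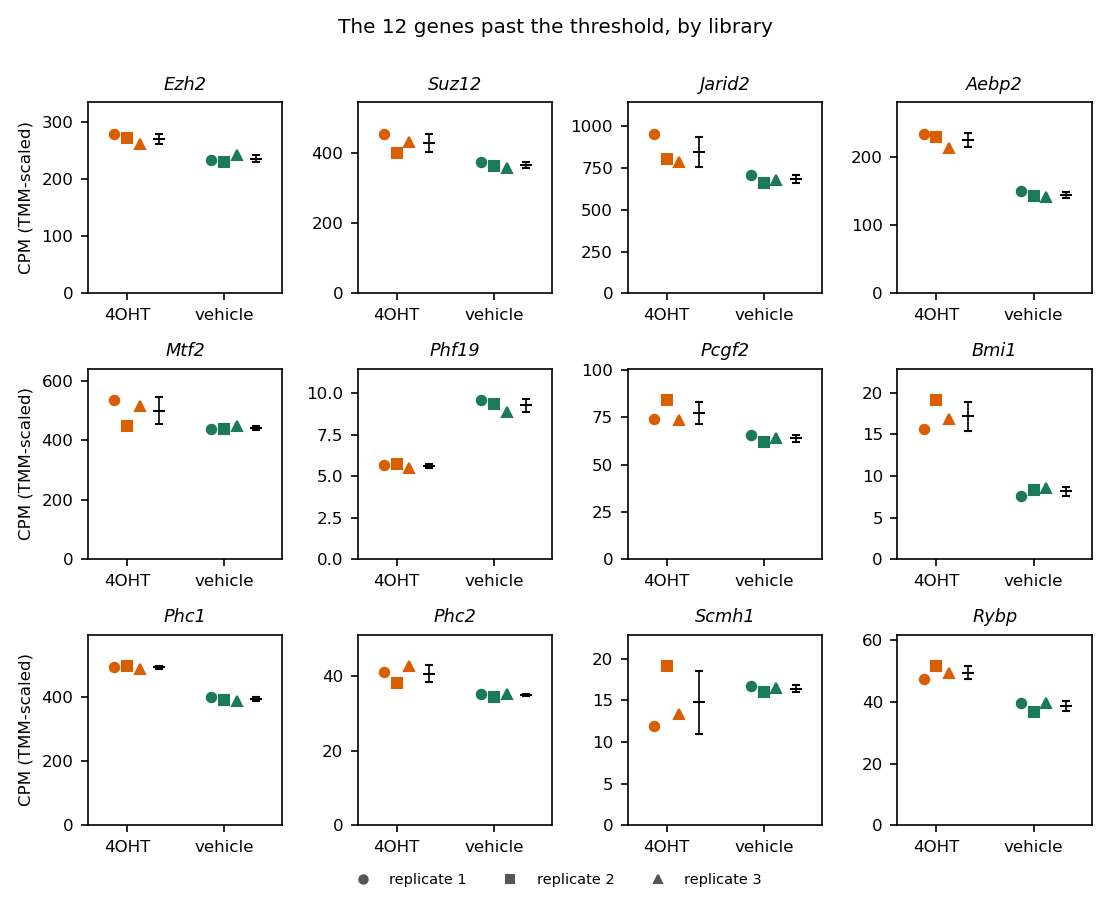
TMM-scaled CPM of the 12 Polycomb genes past the threshold in each library, 4OHT on the left and vehicle on the right of each panel (circles, squares and triangles are replicates 1, 2 and 3; black marks show mean ± SD, n = 3). The axes start at 0; the groups separate in every panel except that of Scmh1, where 4OHT replicate 2, with 10 reads, lies at 19.1 CPM.

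The catalytic core of PRC1 did not pass the test. Rnf2, which encodes the main ubiquitin ligase RING1B, had 222, 193 and 237 CPM in 4OHT cells and 226, 238 and 239 CPM in vehicle cells, with overlapping groups. Its log2 fold change was -0.06 (95% interval -0.19 to 0.08, edgeR adjusted p = 0.588). Ring1, its paralogue, had 13.8, 5.73 and 13.9 CPM in 4OHT and 13.1, 11.9 and 10.7 CPM in vehicle, where the low 4OHT value came from 3 reads. The interval of its log2 fold change, -0.03 to 0.41, was wider, and the adjusted p was 0.222.

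The PCGF genes decide which kind of PRC1 forms, since PCGF2 and BMI1 (PCGF4) define canonical PRC1 and the others define variant forms. Bmi1 had the largest change of the 32 genes and the only one of at least 2-fold. It stood at 15.6, 19.1 and 16.8 CPM in 4OHT cells against 7.62, 8.31 and 8.60 CPM in vehicle cells. Every 4OHT value was clear of every vehicle value, a 2.01-fold rise (log2 fold change 1.0, SE 0.10, 95% interval 0.80 to 1.2, edgeR adjusted p = 1.59e-07). The highest value, in 4OHT replicate 2, rested on 10 reads. Without that library the log2 fold change was 0.998 (edgeR adjusted p = 1.66e-05). A processed pseudogene, Gm5946, matches 73.9% of the longest Bmi1 transcript at 95% identity or more and was not in the table, so how reads shared with it were counted is unknown. Pcgf2, the other canonical member, rose to 74.3, 84.0 and 73.5 CPM in 4OHT against 65.7, 62.2 and 64.0 CPM in vehicle (log2 fold change 0.22, SE 0.06, edgeR adjusted p = 0.0146). Its groups did not overlap, but the call was lost without vehicle replicate 2 or 3 (edgeR adjusted p = 0.12 and 0.0601) and in DESeq2 with all libraries (adjusted p = 0.234).

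The PCGF genes of variant PRC1 did not pass. Pcgf1, Pcgf5 and Pcgf6 had log2 fold changes of -0.16, -0.13 and -0.05, with intervals that include 0. A processed pseudogene, Gm8930, matches 83.2% of the longest Pcgf1 transcript at 95% identity or more. It was not in the table, so how reads shared with it were counted is unknown. Pcgf3, which with Pcgf5 acts in the spread of silencing on the inactive X chromosome, had a log2 fold change of 0.14 (95% interval 0.00 to 0.27) and an edgeR adjusted p of 0.142, or 0.0342 with the replicate number as a block.

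None of the 4 CBX genes passed. They encode the chromodomain subunits by which canonical PRC1 reads methylated lysine 27, and Cbx7 is the one known as dominant in mouse stem cells. Cbx7 ranged from 109 to 132 CPM in 4OHT and from 118 to 128 CPM in vehicle cells (log2 fold change -0.11, 95% interval -0.24 to 0.02). Cbx2 and Cbx6, which are known to increase in differentiating cells, had log2 fold changes of -0.08 (95% interval -0.23 to 0.07) and -0.09 (-0.22 to 0.04). Cbx8 was close to 1 CPM, with 70, 0 and 29 reads in 4OHT and 46, 20 and 30 reads in vehicle cells, which at this depth leaves an interval from -0.28 to 0.72.

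The Polyhomeotic genes Phc1 and Phc2, whose proteins polymerise through SAM domains and compact canonical PRC1 chromatin, both rose. Phc1, which lies near Nanog on chromosome 6, had 492, 495 and 487 CPM in 4OHT cells against 398, 390.1 and 388 CPM in vehicle cells. The spread within each group was far smaller than the gap, a 1.25-fold rise (log2 fold change 0.32, SE 0.06, edgeR adjusted p = 0.000216). Phc2 had 41.1, 38.2 and 42.7 CPM in 4OHT against 35.2, 34.6 and 35.1 CPM in vehicle. It rose by 0.25 (SE 0.07, edgeR adjusted p = 0.00794) with no overlap, and the adjusted p was 0.064 without vehicle replicate 2 and 0.309 in DESeq2 with all libraries.

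Phc3, the third of them, had a log2 fold change of -0.08 (95% interval -0.33 to 0.18) and passed as lower only without 4OHT replicate 1 (edgeR adjusted p = 0.0211). Scmh1, a SAM domain partner of canonical PRC1, had 11.95, 19.1 and 13.3 CPM in 4OHT and 16.8, 16.0 and 16.5 CPM in vehicle cells. Its level fell (log2 fold change -0.38, SE 0.09, edgeR adjusted p = 0.00569), although the groups overlap through 4OHT replicate 2, whose value rests on 10 reads. Without that library the edgeR adjusted p was 0.00626, in limma-voom with quantile normalization it was 0.0501, and in DESeq2 with all libraries 0.468.

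Among the genes of variant PRC1 only Rybp passed. RYBP takes the place of CBX proteins on the RING subunit and stimulates the ligase. Rybp had 47.4, 51.6 and 49.3 CPM in 4OHT cells against 39.5, 36.7 and 39.8 CPM in vehicle cells. It rose without overlap (log2 fold change 0.32, SE 0.07, edgeR adjusted p = 0.00131; 0.0773 in DESeq2 with all libraries). Its paralogue Yaf2 had a log2 fold change of 0.23 (SE 0.10, edgeR adjusted p = 0.12), which became 0.0498 with the replicate number as a block and 0.0475 without 4OHT replicate 1.

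Kdm2b, whose CXXC domain brings variant PRC1 to unmethylated CpG islands, had 107, 107 and 113 CPM in 4OHT against 99.5, 100.6 and 99.5 CPM in vehicle. The groups did not overlap, but with a log2 fold change of 0.14 the adjusted p was 0.0969, against 0.0422 with the replicate block and 0.0349 without 4OHT replicate 1. Bcor, a partner of PCGF1, had a log2 fold change of -0.10 (95% interval -0.23 to 0.03). L3mbtl2, a subunit of the PCGF6 form, had one of 0.12 (-0.01 to 0.24), and 17.2% of its exon bases overlap the opposite-strand gene Chadl. Across PRC1, 5 of 21 genes rose and 1 fell, beside 11.9% and 10.5% of all tested genes, or 22.4% in either direction. Whether PRC1 and PRC2 genes differ in how often they changed was not tested.

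The 20 genes that did not pass had log2 fold changes between -0.16 and 0.23. For 13 of them the 95% interval lay within a 1.25-fold change either way, and the widest interval belonged to Cbx8.

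The mix of paralogues was compared as CPM per kb of transcript, in which shares add up within a family. Transcript length was taken as the median over the protein-coding transcripts of a gene, and the value with the longest transcript stands beside it, since short incomplete models lower the median of some genes. Ezh2 made up 95.1% ± 0.30 of the EZH total per length in 4OHT cells and 94.6% ± 0.22 in vehicle cells (SD, n = 3 each), or 94.4% and 93.8% with the longest transcript. Rnf2 made up 97.4% ± 0.92 of the RING total in 4OHT and 97.3% ± 0.35 in vehicle (92.7% and 92.6% with the longest transcript). Both enzyme pairs were thus dominated by 1 paralogue in both groups.

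Mtf2 made up 99.4% ± 0.20 of the Polycomb-like total per length in 4OHT and 99.1% ± 0.03 in vehicle cells, or 97.7% and 97.1% with the longest transcript. The share of Phf19 was 0.43% ± 0.04 in 4OHT against 0.79% ± 0.04 in vehicle (1.21% and 2.22%). Its fall thus took place in a gene far below Mtf2 per length.

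Cbx7 had the highest level per length of the 4 CBX genes in both groups, 79.3% ± 1.57 of their total in 4OHT and 78.9% ± 0.87 in vehicle cells (62.3% and 62.2% with the longest transcript). Cbx6 came next and Cbx2 after it, and Cbx8 was the lowest. Phc1 led the PHC genes with 75.2% ± 0.78 in 4OHT against 73.6% ± 0.23 in vehicle (91.0% and 90.3%), followed by Phc2 and Phc3. These orders held in both groups and with both lengths.

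The PCGF total was spread over several genes. Pcgf2 and Pcgf6 held 32.3% ± 0.59 and 21.7% ± 3.64 of the total per length in 4OHT cells, and 32.2% ± 1.64 and 28.2% ± 0.36 in vehicle cells. With the longest transcript they held 37.1% and 35.1% in 4OHT and 33.5% and 41.7% in vehicle, so which of the pair stands first depends on the length used. Bmi1 held 20.4% ± 0.82 in 4OHT against 11.7% ± 0.40 in vehicle, but 5.70% against 2.96% with the longest transcript. Its share was larger in 4OHT cells with either length, while its rank in the family was not settled by these data. No test is given for these shares, since 3 libraries against 3 cannot give an exact permutation p below 0.1.

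**Figure D3:**
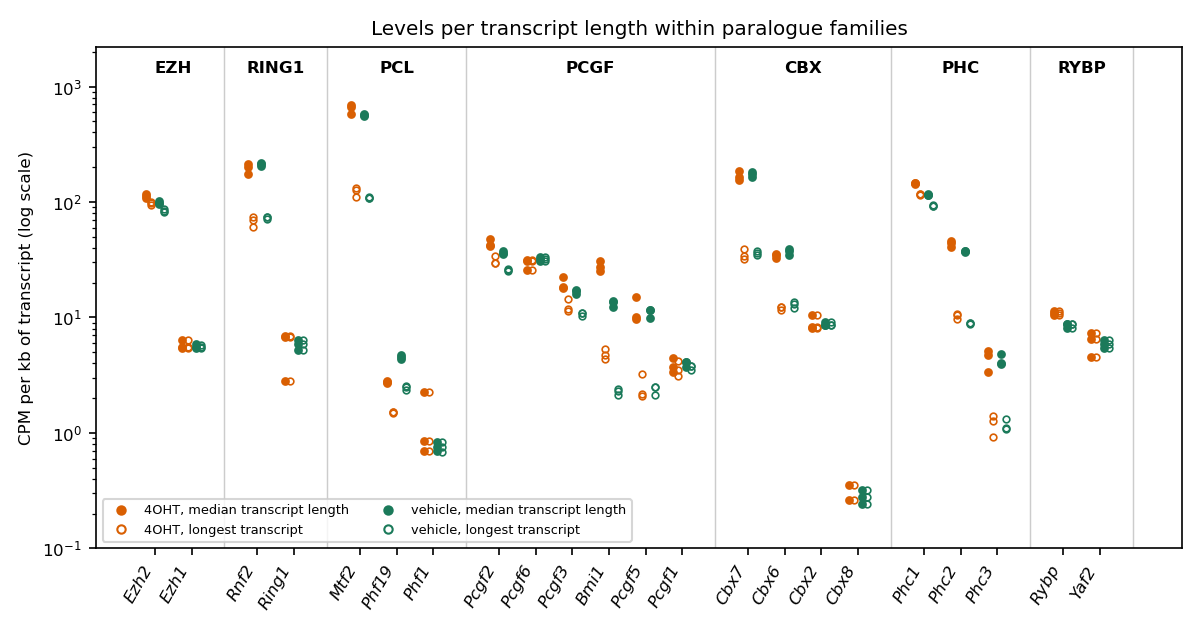
CPM per kb of transcript on a log axis for paralogues of 7 families, with 4OHT to the left of vehicle for each gene and 1 point per library (n = 3 per group). Filled points use the median and open points the longest protein-coding transcript; Ezh2, Rnf2, Mtf2, Cbx7 and Phc1 stand above their paralogues with either length, and the 4OHT library with no Cbx8 read is not drawn.

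The genes lie on many chromosomes, and 5 of them share chromosome 6 with Nanog. Of these, Ezh2, Aebp2, Phc1 and Rybp rose and Pcgf1 did not pass. Over all 613 tested genes of chromosome 6, 22.7% passed, 12.4% as higher and 10.3% as lower. Summed over all 32 genes, levels were 5547, 5428 and 5450 CPM in 4OHT cells against 4817, 4851 and 4903 CPM in vehicle cells. The sums did not overlap, and abundant genes such as Jarid2 weigh most in them.

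Further Polycomb subunits, chosen from knowledge of the complexes, passed about as often as genes in general when both directions are counted together. Of 28 such genes 27 were tested, 5 rose, none fell and the median log2 fold change was 0.07. Among all tested genes 22.4% passed, 11.9% as higher and 10.5% as lower. With the replicate block 8 passed, beside 28.2% of all tested genes. Sfmbt2, an MBT-domain Polycomb protein, had 48.4, 53.5 and 46.5 CPM in 4OHT against 35.5, 32.5 and 36.8 CPM in vehicle cells (log2 fold change 0.45, SE 0.07, edgeR adjusted p = 7.42e-05). Bcorl1, the paralogue of Bcor, had 26.4, 26.7 and 26.4 CPM in 4OHT against 19.6, 19.8 and 19.5 CPM in vehicle (0.43, SE 0.07, edgeR adjusted p = 0.000229). The groups did not overlap for either gene. L3mbtl3 and Sfmbt1 had log2 fold changes of 0.40 and 0.24, and neither passed without vehicle replicate 1 or 3 or without 4OHT replicate 1. The count was 3 without vehicle replicate 1 or 2 and 2 without vehicle replicate 3.

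The genes that work against Polycomb marks were taken as the PR-DUB complex, which removes ubiquitin from histone H2A, and the demethylases of lysine 27. Of 13 tested genes 5 rose and none fell, with a median log2 fold change of 0.08, beside 11.9% of all tested genes that rose and 10.5% that fell. Asxl1, a PR-DUB cofactor, had 262, 281 and 241 CPM in 4OHT against 208, 201 and 203 CPM in vehicle cells (log2 fold change 0.32, SE 0.06, edgeR adjusted p = 0.000503), with no overlap. Its paralogue Asxl3, at 7.49, 11.5 and 5.68 CPM in 4OHT against 4.46, 3.58 and 4.30 CPM in vehicle, rose as well (log2 fold change 0.69, SE 0.14, edgeR adjusted p = 0.00124). Foxk1 and the demethylase gene Kdm6b had log2 fold changes of 0.27 and 0.23, but neither passed without vehicle replicate 2, where the list's count was 2, and it was 3 without vehicle replicate 3.

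Known target families were mostly near the limit of detection. Of 39 HOX genes, the classical Polycomb targets, 7 passed the filter, and the summed level of all 39 was 15.8 to 26.7 CPM in 4OHT against 12.8 to 14.1 CPM in vehicle cells, with 26.7 CPM in the shallow 4OHT replicate 2. Hoxa10 stood at 0.530, 1.91 and 0.620 CPM in 4OHT cells against 0.302, 0.299 and 0.267 CPM in vehicle cells, and the highest of these values is 1 read. It passed the filter through its 4OHT values alone and so had to differ, and its fold is not given as a result. Of the 7 tested genes 2 passed as higher, Hoxa10 among them, and none as lower, beside 22.4% of all tested genes that passed. Since Hoxa10 had to differ, the count of 2 is a description. That count was 1 with the replicate block, 0 without 4OHT replicate 3 and 1 without 4OHT replicate 1 or vehicle replicate 2.

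In a list of 76 developmental regulators from families often bound by Polycomb, 36 were tested, 14 rose and 5 fell, with a median log2 fold change of 0.31, beside 11.9% of all tested genes that rose and 10.5% that fell. Genes that passed the filter only through 1 group had to differ, so these counts are a description. Gata6, a primitive endoderm factor, had 10.4, 11.5 and 12.1 CPM in 4OHT against 0.548, 0.747 and 0.838 CPM in vehicle cells. Foxa1, an endoderm pioneer factor, had 2.76, 3.82 and 2.38 CPM in 4OHT against 0.397, 0.548 and 0.723 CPM in vehicle. Pax8 went the other way, with 0.968, 0 and 0.947 CPM in 4OHT against 4.10, 3.83 and 4.68 CPM in vehicle. Gata4 rose with a log2 fold change of 2.53 and had no read in 4OHT replicate 2. Gata4, Gata6 and Foxa2 are also among the endoderm markers described above. Cdkn2a, the senescence locus that Bmi1 is known for repressing, ranged from 5.01 to 9.55 CPM in 4OHT and from 4.29 to 5.68 CPM in vehicle cells, and did not pass (log2 fold change 0.13, 95% interval -0.16 to 0.43).

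**Figure D4:**
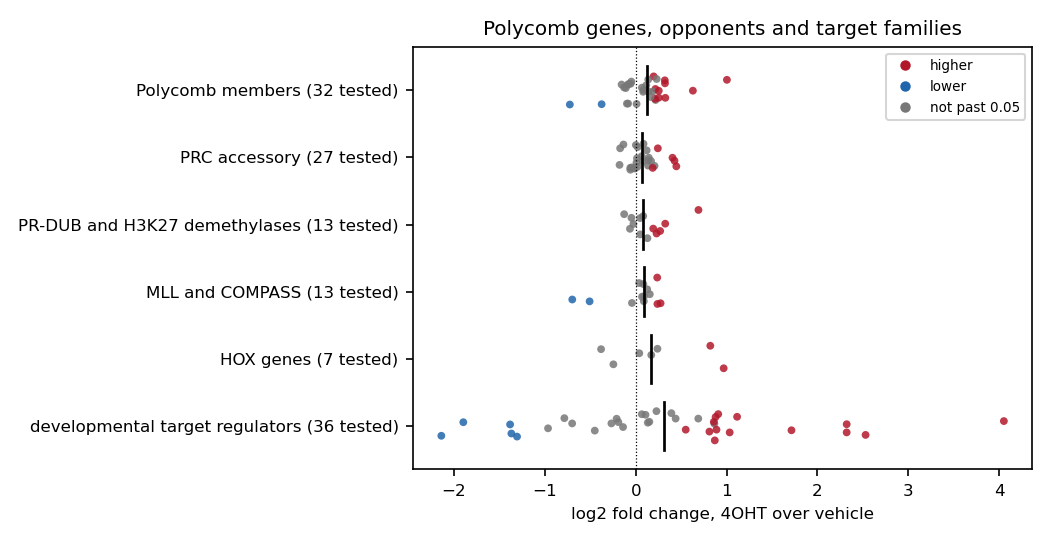
Log2 fold change of 4OHT over vehicle for each tested gene of the Polycomb set and of 5 related lists, from top to bottom (1 point per gene, black bars are medians). Polycomb genes and chromatin opponents stay within about 1 log2 unit of 0, while the developmental regulators spread from -2.14 for Pax8 to 4.05 for Gata6.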

How the data were processed

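Values in the table that the authors deposited are raw read counts per gene symbol: they are whole numbers and their library totals differ widely (515388 to 55194644). Per the submitters' processing notes, STAR, DESeq and the mm9 build were used. The sources used here do not give the counter, annotation or strand setting. The test was that of edgeR 4.0.16 (R 4.3.3): filterByExpr (minimum count 10) kept 14458 genes, TMM factors ran from 0.979 to 1.017, and a quasi-likelihood model with 1 treatment term was fitted to all 6 libraries. P-values were adjusted by Benjamini-Hochberg over all tested genes (threshold 0.05). SE and 95% intervals come from that model. The procedure was tested on counts simulated from the spread that the same model had fitted, with each library drawn independently. Such a simulation cannot show how links between libraries affect the calls. Transcript lengths, overlaps and copies (blastn 2.17.0) used GENCODE vM21 and promoters RefSeq, both GRCm38.

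Members and lists were chosen with earlier results of these data known. All genes past the threshold and the enzymatic and scaffold genes are given by library, with at most 4 genes per related list and Cdkn2a; 1 gene that this rule names is not reported here. Alternatives were DESeq2 1.42.0, limma-voom (3.58.1), other size factors and filters, and leaving out each library. Same-numbered libraries, by their titles, deviated together over 3632 genes (correlations across genes 0.57, 0.147 and 0.388 for replicates 1, 2 and 3; 4OHT replicate 3 with vehicle replicate 2 gave 0.448, above the last 2), so the number also entered as a block in an alternative. No label says what the numbers mark. Reads had no molecular identifiers in the labels.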

Additional observations from a re-analysis of the deposited data

How the results depend on the processing

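For the 32 Polycomb genes, 12 passed in edgeR with DESeq2 size factors, upper quartile factors, no filter and a mean count of at least 50, and the median log2 fold change stayed between 0.10 and 0.13 over all alternatives. In DESeq2 with all libraries their median was 0.12, beside 0.06 over all genes with a read, without the filter on low counts. The median over all tested genes in edgeR was -0.00. DESeq2 called 6 (6 higher, 0 lower), and the same 12 as edgeR when the shallow 4OHT replicate 2 was left out, an alternative chosen after seeing the data; limma-voom called 11, with 1 lower. With the replicate number as a block 16 passed, adding Kdm2b, Pcgf3, Rbbp7 and Yaf2, and among the Polycomb genes it changed no other call. Leaving out 1 library at a time gave 8 to 16 called, 6 to 13 higher and 2 to 3 lower. No Polycomb gene past the threshold changed direction. Over all genes DESeq2 called 939 (551 higher, 388 lower), or 2342 without 4OHT replicate 2, and limma-voom called 2088 (1120 and 968). The block gave 4073 and single libraries left out 2368 to 3950 (1218 to 1950 higher, 1150 to 2019 lower), against 3233 in edgeR.

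For related lists, DESeq2, limma-voom and DESeq2 without 4OHT replicate 2 called 1, 3 and 3 further Polycomb subunits (5 in edgeR, 8 with the block), and 1 and 3 (DESeq2, limma-voom) of the PR-DUB and demethylase list. For MLL and COMPASS each of these 3, DESeq2 size factors and a mean count of at least 50 gave 3. HOX calls were 0, 1 and 1, 0 at a mean count of 50 and 1 with the block. The developmental regulators gave 5, 9 and 12, and 7 at a mean count of 50. Leaving out 1 library gave 2 to 7, 2 to 5, 3 to 6, 0 to 3 and 15 to 19 for these 5 lists. With the longest transcript the shares in 4OHT and vehicle were 94.4% and 93.8% for Ezh2, 5.70% and 2.96% for Bmi1, 62.3% and 62.2% for Cbx7, and 91.0% and 90.3% for Phc1. Without single libraries they ran from 95% to 95.3% in 4OHT and 94.5% to 94.7% in vehicle for Ezh2, 20.1% to 20.9% and 11.5% to 11.9% for Bmi1, 78.4% to 80% and 78.5% to 79.3% for Cbx7, and 74.8% to 75.5% and 73.4% to 73.7% for Phc1. The causes of these differences were not tested. With 1 read worth 1.94 CPM, 4OHT replicate 2 cannot place genes near 1 CPM.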

Other observations

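Genes of the MLL and COMPASS methyltransferases, which place the methyl marks on lysine 4 of histone H3 that oppose Polycomb silencing, went both ways. Of 13 tested genes 3 rose and 2 fell, with a median log2 fold change of 0.09, beside 22.4% of all tested genes that passed. Rbbp5, a core subunit shared by these complexes, had 132, 174 and 138 CPM in 4OHT against 218, 230.1 and 225 CPM in vehicle cells. The groups were far apart (log2 fold change -0.70, SE 0.07, edgeR adjusted p = 1.87e-07), and the fall passed in each alternative that was run. Its partner Ash2l had 476, 437 and 471 CPM in 4OHT against 385, 386 and 388 CPM in vehicle, also without overlap, and rose by 0.27 (SE 0.06, edgeR adjusted p = 0.00128). Setd1b, a methyltransferase of the SET1 complex, had 63.9, 68.7 and 61.4 CPM in 4OHT against 99.0, 88.3 and 80.7 CPM in vehicle (log2 fold change -0.51, SE 0.07, edgeR adjusted p = 3.67e-05). Kmt2a, with a log2 fold change of 0.24 and overlapping groups, did not pass without 4OHT replicate 1 (edgeR adjusted p = 0.657), 4OHT replicate 2 (0.1) or vehicle replicate 2 or 3 (0.2 and 0.122). The count of the list was 3 without 4OHT replicate 2 or vehicle replicate 2 or 3.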
